A study of Rattus norvegicus with 16 samples.

Results

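Axon guidance ligands and receptors were followed in the messenger RNA of rat L4/L5 dorsal root ganglia (DRG), the clusters of sensory neuron cell bodies whose axons run in the sciatic nerve. Members were all genes whose symbol belongs to the semaphorins of classes 3 to 7, the plexins and neuropilins, the Eph receptors and ephrins, the Slits and Robos, or netrins with Dcc and Unc5. Membership went by symbol alone, though the set was chosen with earlier results of these data known. The symbol rule found 55 genes, read by 94 Affy_IDs (the probe sets of the array), among 14217 genes with a single symbol. Each gene was taken from the Affy_ID with the highest mean over all arrays, and 24 of the 55 genes had more than 1 to choose from.

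The 16 arrays came from male adult Sprague-Dawley rats operated at 2 months and from young rats operated at 10 days of age, and all ganglia were collected 7 days after surgery. In spared nerve injury (SNI), the common peroneal and tibial branches of the sciatic nerve were tied and cut while the sural branch was left whole. The groups were adult sham (3 arrays), adult contralateral (3), adult SNI (3), young sham (3), young contralateral (2) and young SNI (2). Sham rats had the nerve exposed with no lesion, and contralateral ganglia were from the uninjured side of SNI rats. Each array held a pool of ganglia from 3 adult or 4 young rats, so replicates are pools, and their spread is not that of single animals. The comparisons address which transcripts follow nerve injury at an age that develops neuropathic pain behaviour and at an age that does not.

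Guidance cues are secreted or surface-bound proteins that a growth cone reads as attraction or repulsion. Semaphorins act through plexins, with neuropilins as co-receptors for most secreted class 3 members, while ephrins are read by Eph receptors, Slits by Robos, and netrins by Dcc and Unc5. Sensory axons depend on these cues when they grow out, and many of the genes remain active in the mature ganglion.

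Values are GC-RMA log2 intensities, so 1 unit is a doubling, and a difference is given as log2 with its standard error (SE). Adjusted p values are from limma, and a gene was called at an adjusted p under 0.05. Markers of DRG neurons (9 of 10 measured) averaged 10.53 to 11.13 on 15 arrays. On the array labelled young SNI 2 they averaged 9.45, while central glia markers (9 of 10) averaged 10.65 against 4.17 to 5.25 on the others, and central neuron markers (9 of 10) 6.15 against 2.34 to 2.72. Myelin genes of the central nervous system were high on that array, with Mog at 11.58 and at most 2.46 elsewhere. Injury genes of sensory neurons did not follow the labels of the young arrays. Atf3, a transcription factor induced in axotomised neurons, was at 11.60 to 11.81 in adult SNI and at 5.70 to 7.27 in the adult controls, but at 9.49, 11.00 and 7.75 in the arrays labelled young sham, at 9.06 and 4.87 in those labelled young contralateral, and at 7.77 and 10.17 in those labelled young SNI. Any direction drawn from the young arrays rests on labels that this gene does not bear out. Calls in comparisons with young SNI are given for all arrays, and for some comparisons also without young SNI 2. The spread of that array also enters the SE of the adult comparisons. In whole ganglia, fewer cells of a type and less RNA per cell cannot be told apart.

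Of the 55 genes, 43 were above a log2 value of 4 on at least 2 arrays. All 10 plexins and neuropilins and all 10 transmembrane semaphorins were, as were 6 of the 7 class 3 semaphorins, 7 of 12 Eph receptors, 3 of 5 ephrins, 4 of 6 Slits and Robos, and 3 of 5 netrin genes. The 12 others were Sema3a, Epha3, Epha6, Epha7, Epha8, Epha10, Efna4, Efnb3, Robo1, Robo3, Dcc and Unc5a, and apart from young SNI 2 none of these went above 4.01 on any array. For these genes a difference between groups lies near the background of the array, and a lack of difference says little. Sema3a, the classical collapsing signal for sensory growth cones, was among them, at 2.32 to 2.52 on all 16 arrays.

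In adult ganglia, 3 members rose after SNI, all of them semaphorins. Sema6a, a transmembrane semaphorin that signals through A-type plexins, rose by 3.38 against sham. Sema3c, a secreted semaphorin read through neuropilins and plexins, rose by 1.20, and Sema4f, a transmembrane semaphorin known for collapsing growth cones, rose by 1.00. The 3 called genes are 5.45% of the members, beside 0.626% of all genes called in that comparison and 0.577% called as higher. No plexin, neuropilin, Eph receptor, ephrin, Slit, Robo or netrin gene was called.

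Sema6a (1376601_at) was at 7.37, 7.36 and 7.04 in adult sham, at 7.08, 6.94 and 7.35 in adult contralateral, and at 10.30, 10.77 and 10.83 in adult SNI. The 3 SNI pools lay far above all 6 control pools, with group means of 10.63 ± 0.29 (SD, n = 3) and 7.19 ± 0.19 (SD, n = 6). The log2 difference was 3.38 (SE 0.59) against sham, at a limma adjusted p of 0.0336, and 3.51 (SE 0.59) against contralateral, at an adjusted p of 0.0203. Sema6a had 5 Affy_IDs. Those with signal moved alike: 1378005_at was 3.42 higher (SE 0.47) and 1382868_at 3.30 higher (SE 0.55) than the mean of both controls, with limma adjusted p of 0.00533 and 0.0149. The remaining pair, 1376220_at and 1396046_at, stayed at 2.26 to 3.63 on all arrays.

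Sema3c (1376319_at) was at 9.87, 10.35 and 10.55 in adult sham, at 10.60, 10.27 and 10.52 in adult contralateral, and at 11.60, 11.40 and 11.38 in adult SNI. All SNI pools were above all control pools. Against sham the adjusted p was 0.0247 (SE 0.20), and against contralateral the difference was 1.00 (SE 0.20) with an adjusted p of 0.0405, both from limma. Sema3c had a signal above 9 in every pool of both ages.

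Sema4f (1368926_at) was at 8.97, 8.56 and 8.64 in adult sham, at 8.57, 8.79 and 8.58 in adult contralateral, and at 9.58, 9.88 and 9.71 in adult SNI. Here too the groups did not overlap. The limma adjusted p was 0.0463 against sham (SE 0.19), and against contralateral the difference was 1.08 (SE 0.19) with an adjusted p of 0.0215.

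**Figure D1:**
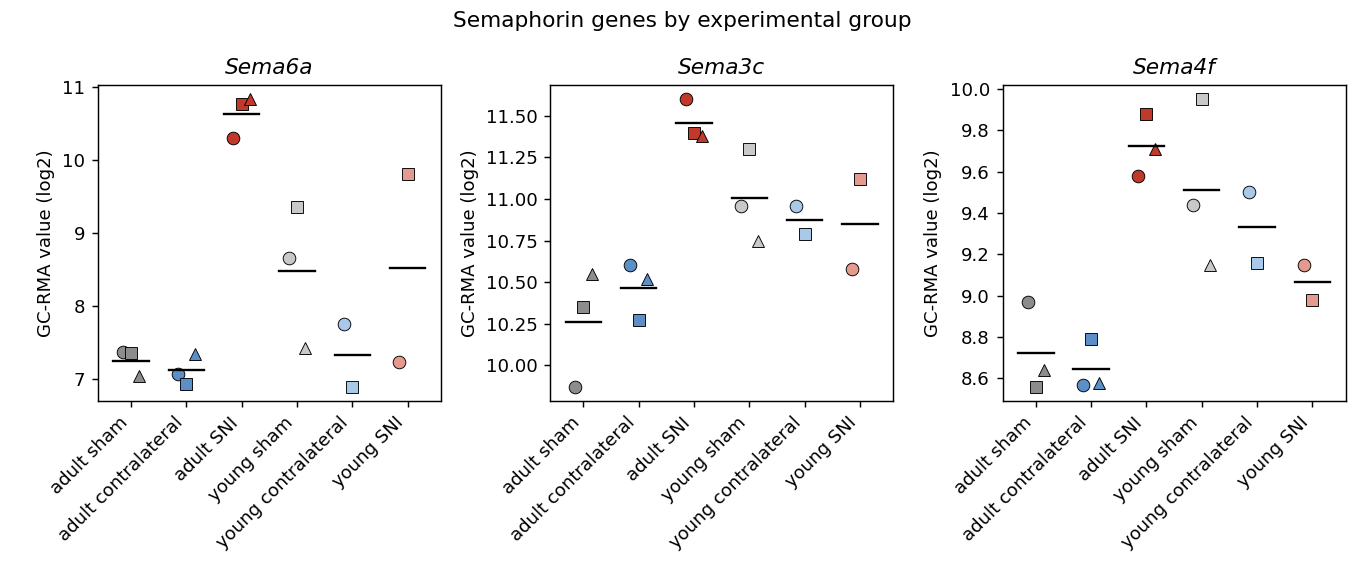
GC-RMA values (log2) of Sema6a, Sema3c and Sema4f on the 16 arrays, by group; circles, squares and triangles are replicates 1, 2 and 3, and the line is the group mean. In each panel the 3 adult SNI pools lie above all 6 adult control pools, while the arrays labelled young SNI overlap or lie below the young controls, except Sema6a on young SNI 2 at 9.81.

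A comparison with the mean of both adult controls, which uses all 6 control pools, was added after seeing the data. In it the same 3 genes were called, beside 1.86% of all genes (1.64% as higher). Differences were 3.44 (SE 0.51) for Sema6a, 1.10 (SE 0.17) for Sema3c and 1.04 (SE 0.16) for Sema4f, with limma adjusted p of 0.00743, 0.00977 and 0.00953. The contralateral comparison alone called the same 3 genes, beside 1.53% of all genes (1.4% as higher).

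The calls depended on the pairing of the arrays and on single pools. Same-numbered adult SNI and contralateral arrays deviated together, and with that number as a block over all groups (replicate block), limma called 0 of the 3 against sham and 2 against contralateral (Sema6a and Sema4f). With a block for the SNI animals alone, limma called 0 in either comparison; at unadjusted p under 0.05 without a block, 7 and 11 members passed. Under both blocks all 3 were called against the mean of the controls, but that comparison was chosen after seeing the data. Without adult SNI 2, no member was called in any of these comparisons. The shares of all genes were then 0.204% against sham, 0.436% against contralateral and 0.549% against the mean of both. Against sham, 0 were also called without adult SNI 3, adult sham 1 or adult sham 2, beside 0.274%, 0.176% and 0.183% of all genes. There was 1 call without adult sham 3, any adult contralateral pool or young sham 1, beside 0.436% to 0.521% of all genes. Without adult SNI 1 there were 2 calls (beside 1.24% of all genes), and these included Slit3, which was lower. Against contralateral, 0 were called without adult SNI 3 (beside 0.584% of all genes) or any 1 of the contralateral pools (beside 0.239% to 0.443%). In that comparison 5 were called without adult SNI 1 (Sema6a, Sema4f, Sema3e, Efnb1 and Slit3), beside 2.54% of all genes. Against the mean of both controls, 6 were called without adult SNI 1 (Sema6a, Sema3c, Sema4f, Sema3e, Efnb1 and Slit3), beside 2.89% of all genes. With each age fitted on its own, which leaves out every young array, 3, 2 and 3 members were called against sham, contralateral and the mean of both. The share of all genes called in those fits is not given. In all fits that left out 1 array, the difference of Sema6a against sham stayed at 3.27 to 3.54, that of Sema3c at 1.01 to 1.35 and that of Sema4f at 0.92 to 1.12.

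Genes of macrophages and of injured sensory neurons were on average higher in adult SNI than in all adult control pools. Of the DRG neuron, myelinating Schwann cell, satellite glia and endothelium lists, limma called 0 genes against the mean of both controls. The 10 macrophage genes averaged 7.57 to 8.35 in adult SNI and 5.62 to 6.97 in the adult controls. The 10 genes of injured sensory neurons averaged 11.20 to 11.55 in adult SNI and 6.03 to 7.47 in the adult controls. The 8 fibroblast genes averaged 10.74 to 11.53 in adult SNI and 9.85 to 11.42 in the adult controls, ranges that overlap, and 4 of them passed an unadjusted p under 0.05 against the mean of both controls, with 0 called in limma. The part of these cells in the semaphorin values was not tested.

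Genes that rise together may be compared at their promoters, so the 250 bases before the transcription start of Sema3c and Sema4f are shown as 5′ to 3′ on the coding strand, from RefSeq on GRCr8. Sema3c lies on the minus strand at chr4:18699628-18699877 and Sema4f on the minus strand at chr4:116995443-116995692. The Sema6a window is not shown here. Capitals mark ATTGG, the CCAAT box read on the opposite strand.
Sema3c: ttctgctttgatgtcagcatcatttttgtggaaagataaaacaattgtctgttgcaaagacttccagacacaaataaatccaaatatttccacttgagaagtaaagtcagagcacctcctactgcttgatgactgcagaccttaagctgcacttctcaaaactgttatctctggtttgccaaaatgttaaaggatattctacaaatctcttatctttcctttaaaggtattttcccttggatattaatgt
Sema4f: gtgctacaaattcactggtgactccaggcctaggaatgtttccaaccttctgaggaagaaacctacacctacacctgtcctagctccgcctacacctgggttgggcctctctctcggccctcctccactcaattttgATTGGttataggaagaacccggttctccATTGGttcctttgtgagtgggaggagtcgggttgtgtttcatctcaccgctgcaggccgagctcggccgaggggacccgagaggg
The Sema3c window is 35.2% G and C with 0 CpG, while that of Sema4f is 55.6% G and C with 9 CpG. Of 55 members, 41 had a promoter entry. CCAAT was found on either strand in 16 of these 41 windows and in 34% of all 33469 promoters. The AP-1 letters TGANTCA were in 6.34% of all promoters and, among members, in Epha10. The CRE letters TGACGTCA were in 1.59% and, among members, in Epha2. Neither motif was in the Sema3c or Sema4f window. A match is a description of letters and not a bound site, and no match shown overlaps a match of another of these motifs.

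Over the 55 members, SNI gave no common shift. The median log2 difference was -0.01 against sham, as over all genes (-0.01), and -0.04 against contralateral beside -0.02. Members above 0 were 26 of 55 (47.3%) against sham, beside 41.8% of all genes. At an unadjusted p under 0.05, 7 members passed against sham (12.7%, beside 9.52% of all genes) and 11 against contralateral (20%, beside 12.6%).

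**Figure D2:**
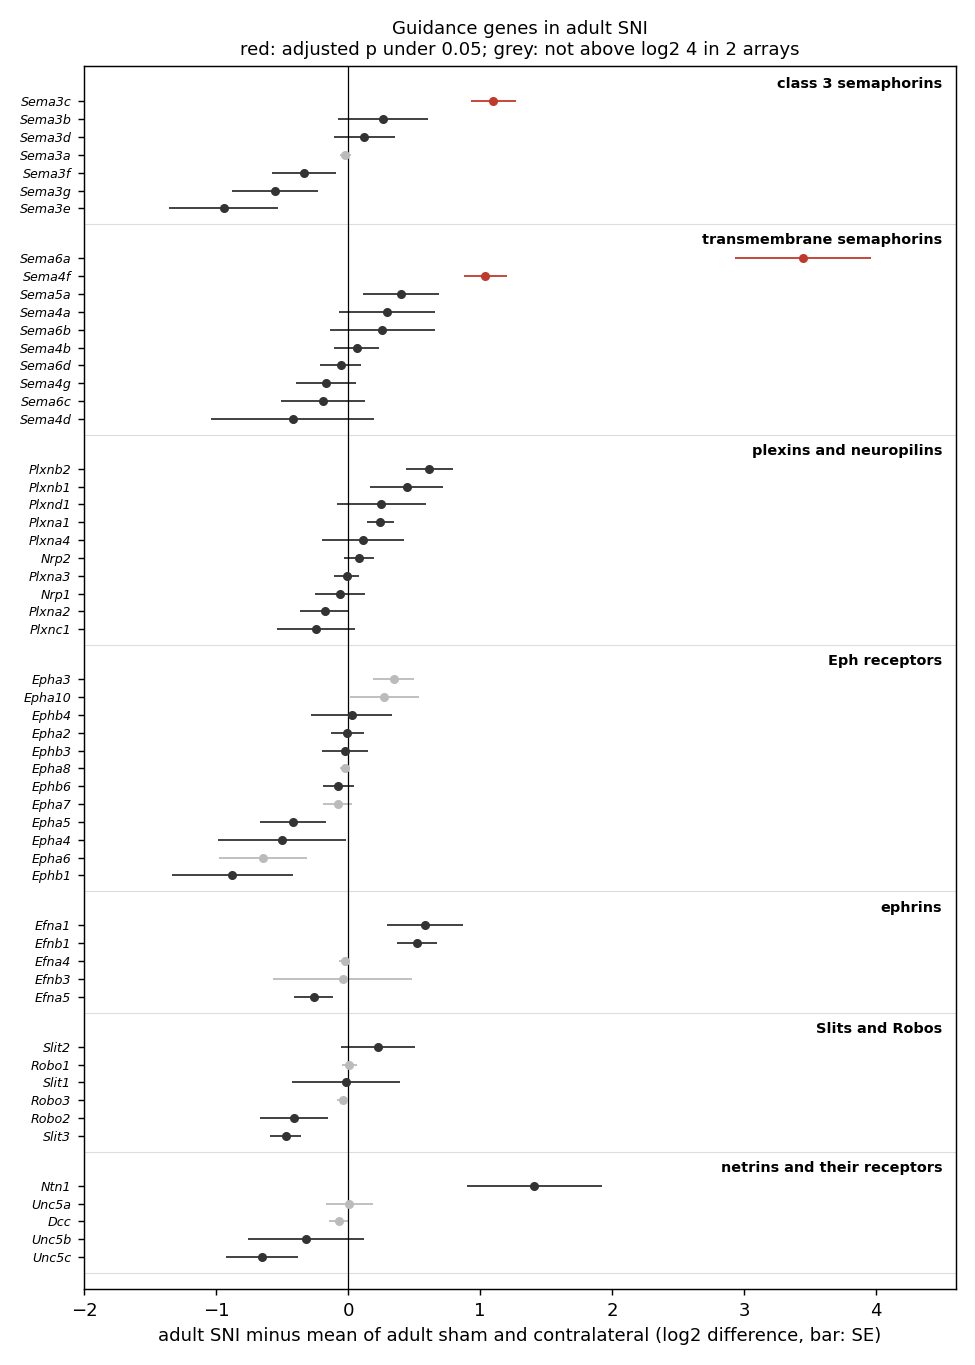
Log2 difference between adult SNI and the mean of adult sham and contralateral for all 55 guidance genes, by family; points are the fitted differences, bars their SE, red marks an adjusted p under 0.05 and grey a gene not above log2 4 on 2 arrays. Sema6a lies at 3.44, Sema3c at 1.10 and Sema4f at 1.04; Ntn1, at 1.41 with an SE of 0.51, was not called.

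Among the class 3 semaphorins, Sema3g and Sema3e had values on the low side of the adult controls. Sema3g, a secreted semaphorin read through neuropilin 2, was at 9.88, 9.53 and 9.35 in adult SNI and at 10.05 to 10.31 in the 6 controls, so the groups did not overlap. Its difference of -0.55 (SE 0.33) against the mean of the controls did not pass (limma adjusted p = 0.691), but without young SNI 2, where its value was 7.93, the same difference had an SE of 0.12 and a limma adjusted p of 0.0426 (4 members called, beside 2.87% of all genes). Sema3e was at 8.10, 6.78 and 5.49 in adult SNI, a wide spread, beside 7.20 to 8.37 in the controls. Sema3b was at 11.58 to 12.71 in adult SNI and at 11.22 to 12.49 in the controls. Sema3d stayed between 2.93 and 4.88 on all arrays.

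Among the transmembrane semaphorins, Sema4d was below the controls in every adult SNI pool. Sema4d, the ligand of plexin B1, was at 6.06, 5.89 and 5.49 beside 6.11 to 6.38, and its difference of -0.42 (SE 0.62) was not called (limma adjusted p = 0.820). That SE takes in the spread of all 6 groups. The SD of Sema4d was 0.29 in adult SNI but 2.85 in young SNI, with arrays at 6.13 and 10.16. The lack of a call therefore says little about the adult pools. Sema5a was at 10.51, 10.00 and 11.30 in adult SNI beside 9.58 to 10.83 in the controls. Sema6d was at 10.97 to 11.56 in adult SNI and at 10.99 to 11.51 in the controls, and Sema6c was at 4.12 to 4.35 beside 3.90 to 5.88.

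None of the 10 plexins and neuropilins passed. Plxnb2, a receptor of class 4 semaphorins, was at 7.60, 8.07 and 8.18 in adult SNI and at 7.10 to 7.66 in the controls, a difference of 0.62 (SE 0.18, limma adjusted p = 0.165). Plxnb1 was at 8.04, 7.99 and 8.43 beside 7.24 to 8.21. Plxna1 was at 8.09, 8.40 and 8.31 beside 7.89 to 8.17. Nrp1, a co-receptor of class 3 semaphorins, was at 9.23 to 9.64 in SNI and at 9.15 to 9.85 in the controls. Plxnd1 was at 6.51 to 7.57 beside 6.33 to 7.07.

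The Eph receptors and ephrins gave no call either. Epha4, a receptor of both ephrin classes, was at 5.96, 5.34 and 5.49 in adult SNI and at 5.97 to 6.39 in the controls, without overlap but by 0.01 at the closest pair (difference -0.50, SE 0.48, limma adjusted p = 0.812). This SE takes in all 6 groups, and the young SNI arrays were at 6.31 and 9.29. Another Epha4 Affy_ID, 1390638_at, did overlap, at 5.91, 5.73 and 5.06 in adult SNI beside 5.45 to 6.02 in the controls. Ephb1 was at 6.77, 6.17 and 4.81 beside 6.51 to 7.06, and Epha5 was at 6.16 to 7.38 beside 7.19 to 7.60. Efnb1, a transmembrane ephrin, was at 8.02, 8.56 and 8.55 beside 7.59 to 8.28, a difference of 0.52 (SE 0.15, limma adjusted p = 0.162). Efna1 was at 7.18, 7.96 and 7.08 beside 6.54 to 7.19. Efna5 was at 8.01 to 8.64 beside 8.24 to 8.91. Epha6 was at 2.01 to 2.40 beside 2.35 to 4.01, and Epha8 and Efna4 stayed at 1.80 to 2.07 on all arrays.

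Among Slits, Robos and netrin genes, Slit3 was at 5.17, 4.62 and 4.67 in adult SNI and at 5.17 to 5.48 in the controls. Slit3 is a secreted ligand of Robo receptors, and its difference of -0.47 (SE 0.12) had a limma adjusted p of 0.0881. Robo2, with 9.95 to 11.03 in the controls, was at 10.39, 10.30 and 10.10. Slit2 was at 8.88 to 9.03 beside 7.73 to 9.25. Ntn1, a secreted cue that attracts through Dcc and repels through Unc5, was at 6.54, 7.70 and 7.48 beside controls spread from 4.29 to 7.00, and its difference of 1.41 (SE 0.51) had a limma adjusted p of 0.319. Unc5c was at 5.13, 3.97 and 4.39 beside 4.93 to 5.34. Dcc, Unc5a and Robo3 stayed at 2.10 to 3.18 in adults.

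Across the members, values of all adult SNI pools were above all 6 adult control pools for 3 genes (5.45%, beside 4.52% of all genes), which were Sema6a, Sema3c and Sema4f, and below them for another 3 (5.45%, beside 3.04%), which were Sema3g, Sema4d and Epha4. The latter pair, Sema4d and Epha4, were named after their values had been seen. Other Affy_IDs of Sema3g and Epha4 overlapped between adult SNI and the controls. Some Affy_IDs outside this count did not overlap. Plxna2 1392157_at was at 7.95, 7.88 and 7.34 in adult SNI and at 8.05 to 8.88 in the controls. The Plxna2 Affy_ID in the count, 1390274_at, overlapped, at 8.35 to 8.82 beside 8.34 to 8.93. Sema3f 1377892_at, near the background, was at 2.43 to 3.01 beside 3.02 to 3.53. Both were named after their values had been seen.

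In the arrays labelled young, limma called 0 members for SNI against sham (beside 0.0211% of all genes) and 0 against contralateral (beside 0.0141%). At an unadjusted p under 0.05, 11 and 7 members passed, beside 7.11% and 6.65% of all genes. Sema6a was at 8.66, 9.36 and 7.43 in young sham, at 7.76 and 6.90 in young contralateral, and at 7.24 and 9.81 in young SNI. The young SNI pair spanned more than the range of the 5 young controls. Sema3c was at 10.96, 11.30 and 10.75 in young sham, at 10.96 and 10.79 in young contralateral, and at 10.58 and 11.12 in young SNI. Sema4f was at 9.44, 9.95 and 9.15, at 9.50 and 9.16, and at 9.15 and 8.98 in the same order. Young SNI was therefore at or below the young controls for Sema4f and around them for Sema3c.

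Sema6a varied across the young arrays in the same order as the injury genes for most pools. Young sham 2 had the highest control value of Sema6a (9.36) and of Atf3 (11.00), and young contralateral 2 the lowest of both (6.90 and 4.87). Young SNI 1 was at 7.24 with Atf3 at 7.77, near young sham 3 at 7.43 and 7.75. These values are given side by side, and whether the labels of the young pools hold was not tested.

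**Figure D3:**
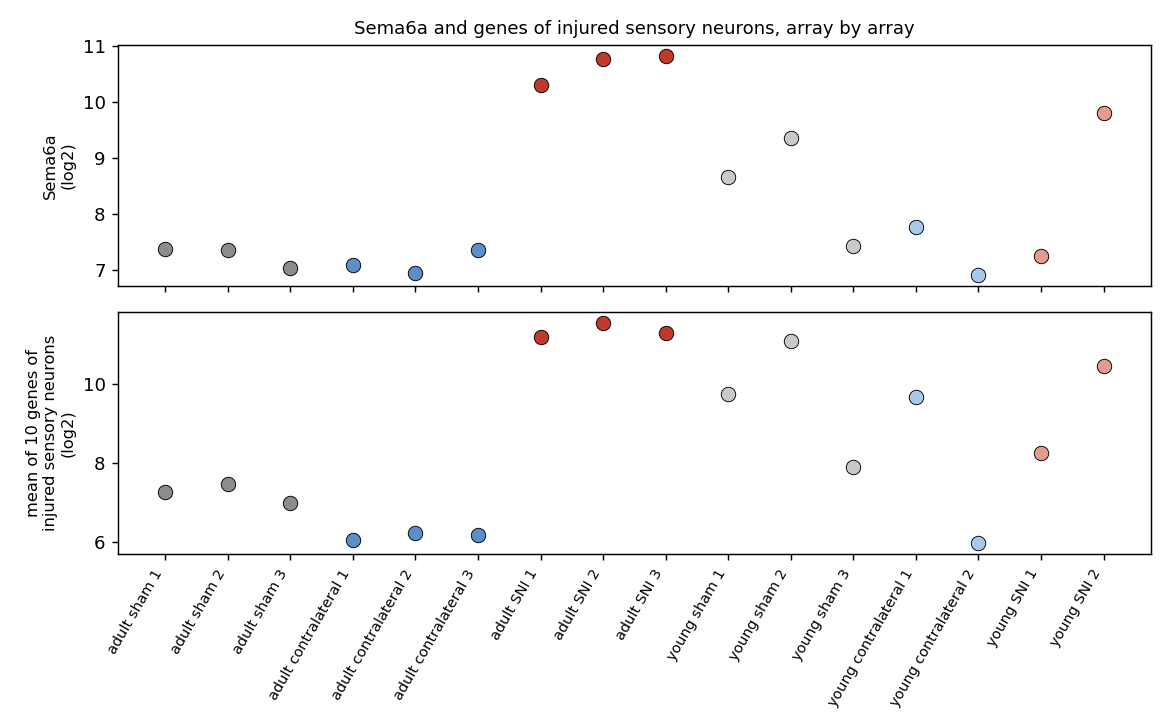
Values of Sema6a (upper panel, log2) and the mean of 10 genes of injured sensory neurons (lower panel, log2) on each of the 16 arrays, coloured by group. The adult SNI arrays are high in both panels (Sema6a 10.30 to 10.83), and young sham 2 (9.36 and 11.10) is above young SNI 1 (7.24 and 8.26) in both.

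Several members stood apart on the array labelled young SNI 2 alone. Values were more than 1 log2 unit above every other array for 7 members (12.7%, beside 2.56% of all genes) and more than 1 below every other array for 4 (7.27%, beside 2.37%). Sema4d was at 10.16 there and at 5.49 to 6.85 on the other 15 arrays. Epha4 was at 9.29 beside 5.34 to 7.06. Unc5b, a netrin receptor of the repulsive class, was at 8.13 beside 3.98 to 5.41. Efnb3, an ephrin of the central nervous system midline, was at 5.88 beside 2.24 to 3.62. The others above were Sema4a at 8.24, Ephb1 at 8.45 and Unc5a at 3.36, and those below were Slit1 at 3.62, Sema3f at 3.56, Sema3g at 7.93 and Plxnc1, a receptor of Sema7a, at 6.60. All 11 were named after their values had been seen. The central glia and central neuron markers given above were high on this same array and their part in these values was not tested.

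Unc5b was also higher on young SNI 1, at 5.41, than on the 5 young controls, at 4.54 to 4.91, and it was the single member (1.82%, beside 1.29% of all genes) with both young SNI arrays above the controls. Without young SNI 2 its difference from the mean of the young controls was 0.77 (SE 0.26), with a limma adjusted p of 1.00. Plxnc1 was the single member with both arrays below, at 8.02 and 6.60 beside 8.04 to 8.46 (1.82%, beside 2.35%). Without young SNI 2, young SNI 1 is the group's only array. Epha10, near the background, was at 1.81 on young SNI 1 and at 2.07 to 2.29 in the young controls. Without young SNI 1, which leaves young SNI 2 as the group's only array, 16 members were called against sham (beside 13.7% of all genes) and 14 against contralateral (beside 13.1%).

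**Figure D4:**
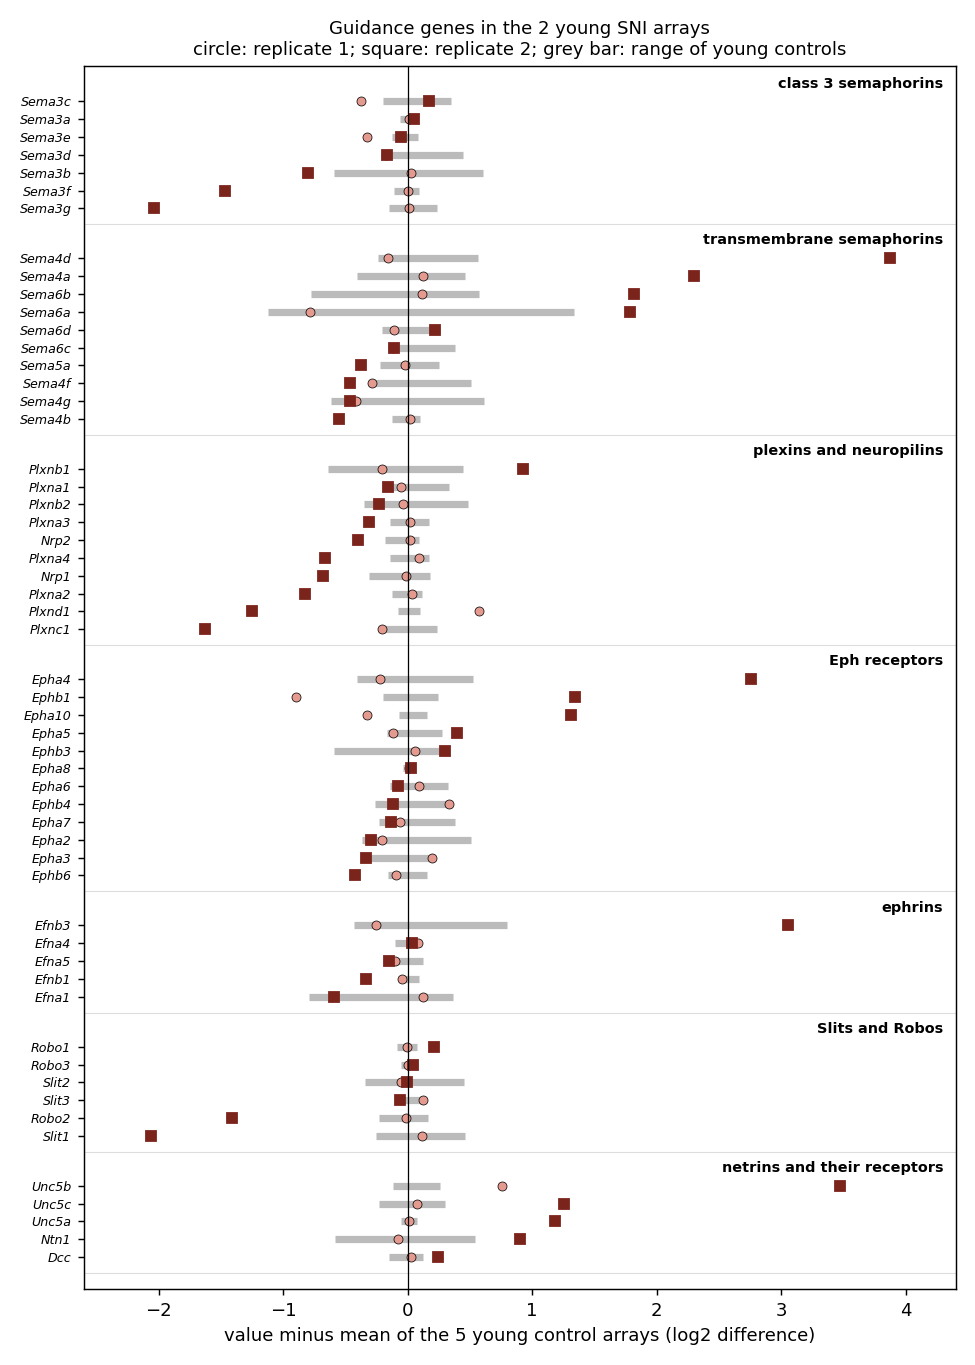
Values of the 55 guidance genes on young SNI 1 (circles) and young SNI 2 (squares) minus the mean of the 5 young control arrays (log2 difference), with the range of those controls as grey bars, by family. Young SNI 1 stays near the controls for most genes, while young SNI 2 departs for Sema4d (3.87), Unc5b (3.48), Efnb3 (3.06) and Epha4 (2.76) upwards and for Slit1 (-2.06) and Sema3g (-2.04) downwards.

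The difference between the adult and the young response (SNI minus the mean of both controls, adult minus young) was tested directly. No member was called (limma, beside 0.134% of all genes), while 10 passed an unadjusted p under 0.05 (18.2%, beside 10.1%). The smallest p was that of Sema4f, whose response was 1.40 higher in adults (SE 0.25, adjusted p = 0.0934). Leaving out 1 array moved its adjusted p from 0.0123 to 0.235, and it passed without young SNI 1 (0.0123), young sham 2 (0.0392) or young sham 3 (0.0275). The response of Sema3c was 1.19 higher (SE 0.27, limma adjusted p = 0.175). That of Sema6a was 2.83 higher (SE 0.80, limma adjusted p = 0.366), and without young SNI 2 it was 4.11 higher (SE 0.66) and passed at a limma adjusted p of 0.0326, beside 0.373% of all genes. That fit has young SNI 1 as the only young SNI array, so its error is borrowed from the spread of the other groups, and Atf3 was at 7.77 on it. Without young SNI 1, where the young group is young SNI 2 alone, 15 members were called, beside 12.2% of all genes. Adult and young SNI arrays were also set side by side. Unc5b was called, 2.53 lower in adults (SE 0.56, limma adjusted p = 0.0419), which is 1.82% of members beside 3.36% of all genes, and without young SNI 2 it was not, while Sema6a was (beside 0.921%). The direction of each of these differences rests on the labels of the young arrays, which Atf3 did not follow. Whether those labels hold was not tested.

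In the controls, adult and young ganglia differed in Sema4f. Adult controls were at 8.56 to 8.97 and young controls at 9.15 to 9.95, and the adult value was 0.74 lower (SE 0.14, limma adjusted p = 0.0167). It was the single member called, which is 1.82% of members beside 5.25% of all genes (2.67% as lower). Adults were male and the sex of the young rats is not stated, and Xist, which is transcribed in females, was at 2.32 to 2.57 in every adult array at 2.36 and 2.35 in young sham 2 and young contralateral 1, and at 9.77 to 12.05 in the other young arrays. Young sham 2 and young contralateral 1 were thus as low in Xist as the adults. On them Sema4f was at 9.95 and 9.50, Sema3c at 11.30 and 10.96 and Sema6d at 12.10 and 11.82. Every young control was above every adult control in these genes, so no choice of young controls could lie elsewhere. Atf3 was at 11.00 and 9.06 on these 2 arrays. The part of sex in the age differences was not tested. With adult SNI 2, adult SNI 3, young sham 1 or young sham 2 left out, 3.78% to 4.66% of all genes were called between control ages. Without young contralateral 1 no member was called, beside 1.17% of all genes. Without adult SNI 2, adult SNI 3, young sham 1 or young sham 2 there were 2. Without adult sham 3 there were 3 (beside 6.51% of all genes), without young SNI 1 there were 4 (beside 8.23%), and without young SNI 2 there were 4, Sema4f, Sema3c, Plxnb1 and Epha3 (again beside 8.23%).

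At an unadjusted p under 0.05, 9 members passed (16.4%, beside 20.7% of all genes), and all of them were lower in adults (beside 9.74% of all genes lower), while 0 were higher, beside 11% of all genes. Sema3c was at 9.87 to 10.60 in adult controls and at 10.75 to 11.30 in young controls, so the ages did not overlap (difference -0.58, SE 0.15, limma adjusted p = 0.0528). Sema6d was at 10.99 to 11.51 and at 11.63 to 12.10, again without overlap (-0.46, SE 0.13, limma adjusted p = 0.0836). Plxnb1, the receptor of Sema4d, was at 7.24 to 8.21 and at 7.96 to 9.05 (-0.84, SE 0.24, limma adjusted p = 0.0779). Sema4g was at 5.45 to 6.61 and at 6.23 to 7.46 (-0.74, SE 0.20, limma adjusted p = 0.0592). Epha3, Epha2, Plxna3 and Nrp1 made up the 9, with differences of -0.52, -0.27, -0.19 and -0.36.

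Values of all adult controls were below those of all young controls for 3 members (5.45%, beside 3.19% of all genes), Sema3c, Sema4f and Sema6d, and above for 0 (beside 5.02%). The median difference of the members was -0.11 beside 0.03 over all genes, and 20 of 55 (36.4%) were above 0 beside 60.1% of all genes. Sema3c and Sema4f, which were higher after injury in adults, thus had higher values in young than in adult controls. The injury genes were raised in some arrays labelled young control. For the 2 young controls with the lowest Atf3, young contralateral 2 and young sham 3, Sema4f was at 9.16 and 9.15 and Sema3c at 10.79 and 10.75. Since the ages did not overlap in these genes, these 2 arrays could not lie among the adult controls. Young sham 3 was itself above every adult control in Atf3. The part of the injury genes in these age differences was not tested. Genes of other cells also differed between ages. Those of myelinating Schwann cells (9 of 10 measured) averaged 10.32 to 11.44 in adult and 11.39 to 12.00 in young controls, with 2 called as lower in adults, Egr2 and Mag, in limma. The 8 fibroblast genes averaged 9.85 to 11.42 in adult and 10.86 to 11.69 in young controls, with 1 called as lower, Col3a1. The part of these cells in the values of the members was not tested.

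**Figure D5:**
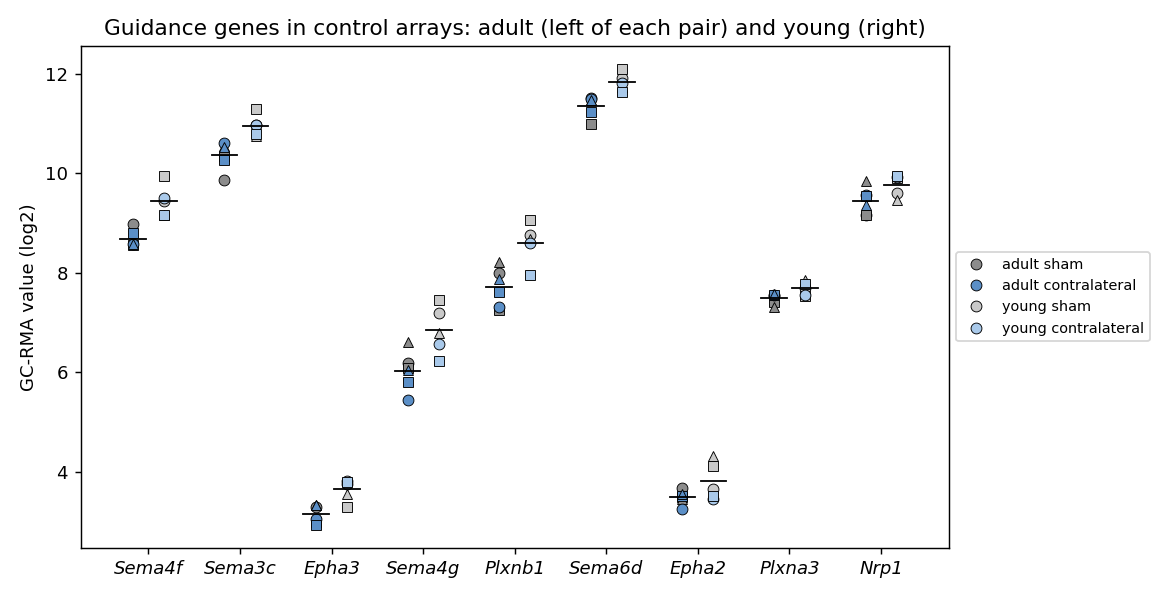
GC-RMA values (log2) of the 9 guidance genes with an unadjusted p under 0.05 between adult and young controls; each pair shows the 6 adult control arrays on the left and the 5 young ones on the right, with shapes for replicate numbers, colours for sham and contralateral, and lines for means. Sema4f, Sema3c and Sema6d show no overlap between ages.

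Sham and contralateral ganglia did not differ in any member by the adjusted test at either age (0 of 55 in limma, beside 0% of all genes). At an unadjusted p under 0.05 there were 0 members in adults and 3 in young rats (Epha2, Plxna1 and Sema4g), beside 2.56% and 2.35% of all genes.

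Proteins that carry the signal of guidance receptors inside the cell, or join them at the membrane, were followed as a separate list, of which 40 of 44 genes were measured. In adult SNI, 0 passed against sham and 0 against contralateral in limma, with 8 at an unadjusted p under 0.05 in each, beside 9.52% and 12.6% of all genes. Against the mean of both controls 1 of the 40 was called, beside 1.86% of all genes. This was Chl1, a cell adhesion molecule that joins neuropilin 1, which rose by 1.11 (SE 0.22, limma adjusted p = 0.0391). Chl1 was at 10.56, 11.52 and 10.98 in adult SNI and at 9.68 to 10.20 in the controls. Between ages 7 of the 40 passed, 6 of them lower in adults and 1 higher, beside 5.25% of all genes. Crmp1 and Dpysl3, cytosolic proteins of the family that relays semaphorin signals, were 0.91 (SE 0.12) and 1.65 (SE 0.28) lower in adult than in young controls, in the limma fit, with adjusted p of 0.00235 and 0.0102. Dpysl5 of the same family, the adhesion molecule Nrcam, the netrin and RGM receptor Neo1 and the kinase Abl1 were also lower in adults. Pak1, a kinase downstream of Rac, was 0.62 higher in adults (SE 0.10, limma adjusted p = 0.00874). The median of the list was -0.31 between ages beside 0.03 over all genes. In the young SNI comparisons 0 of the 40 passed in limma, with 4 and 8 at an unadjusted p under 0.05, beside 7.11% and 6.65% of all genes.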

How the data were processed

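Gene expression in L4/L5 DRG was read on 16 Affymetrix rat arrays. The authors applied GC-RMA and deposited log2 values per Affy_ID, after removing 2 arrays as outliers; no version of either tool of the authors (GC-RMA, limma) was found. Intensities carry no read depth, so the number of arrays and the array background limit the precision. Gene symbols came from the platform annotation.

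All 31042 non-control Affy_IDs (57 controls left out) were fitted with limma 3.58.1 in R 4.3.3: 6 group means, all 16 arrays, empirical Bayes variances, Benjamini-Hochberg over all Affy_IDs within each comparison, threshold 0.05. The fits were tested on simulated data. The alternatives were a trend or robust prior, a filter at log2 4 on 2 arrays, array weights, quantile normalization, each age alone, mean of a gene's Affy_IDs, adjustment over 6 comparisons, replicate blocks, and each array left out. Named members were those called, in each family the 3 smallest p in adult SNI and the 2 smallest between ages, and the highest and lowest mean level; exceptions are stated. The members and lists were chosen with earlier results of these data known.

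Contralateral ganglia came from the SNI rats. Same-numbered adult SNI and contralateral arrays were taken as paired because their deviations from the group means correlated at 0.449, 0.445 and 0.362 over Affy_IDs; the labels give the number only. Promoters were read from RefSeq tables with Python 3.11.15.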

Additional observations from a re-analysis of the deposited data

How the results depend on the processing

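Sema6a, Sema3c and Sema4f kept their direction under all alternatives in each comparison that called them, but the calls were not kept. Against sham, the 3 calls in adult SNI became 1 with quantile normalization and 0 with the replicate block or the block of the SNI animals. Against contralateral they became 2 with the replicate block and 0 with the block of the SNI animals. With the replicate block, the limma adjusted p against sham and contralateral were 0.0687 and 0.0451 for Sema6a, 0.0648 and 0.0914 for Sema3c, and 0.0798 and 0.0457 for Sema4f. Between the adult and young response, adjustment over the 6 comparisons together gave 1 call (Sema4f) in place of 0. Between adult and young controls, the 1 call became 4 with the filter on low values, 6 with array weights, 2 with quantile normalization, 2 with the replicate block, 2 with the block of the SNI animals and 4 with the mean of all Affy_IDs of a gene. Shares of all genes called under these alternatives are not given, so the counts do not single out the members. Leaving out 1 array gave 0 to 3 calls against adult sham, 0 to 5 against adult contralateral, 0 to 6 against their mean, 0 to 16 for young SNI against sham, 0 to 14 against contralateral, 0 to 15 for the difference in response and 0 to 4 between control ages. The blocks left the other counts of calls as they were. Of the values of single named members under these alternatives, 5244 kept direction and call, 51 newly passed, 63 no longer passed and 138 changed sign without being called. The cause of these shifts was not tested. The comparison with the mean of both controls was chosen after seeing the data. Members near the background have no value under the filter.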
